A study of Mus musculus with 8 samples.

Results

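The collagen genes of Lats2-/- and wild-type (Lats2+/+) mouse embryonic fibroblasts (MEFs), cells grown out of embryos, were examined in 3 litters. A collagen gene was any gene whose name in the scanner files is Col, a number, the letter a and a second number. By this rule 40 of the 27745 named genes on the array were collagens, with 81 probes. They were sorted into 11 fibrillar genes, 8 basement-membrane genes (with the multiplexins Col15a1 and Col18a1), 9 FACIT genes (fibril-associated collagens with interrupted triple helices) and 12 others. Both genotypes are labelled C57BL/6J and were grown without treatment in DMEM with fetal bovine serum. The embryonic age is not given in the sources used here. Each of the litters 112, 116 and 121 gave 1 Lats2-/- and 1 Lats2+/+ RNA extract, each from 1 named clone, so that a litter is 1 pair and n is 3 litters. Both extracts of a litter were hybridised to the same Agilent two-colour arrays with the dyes swapped, 2 arrays for litters 112 and 116 and 4 for litter 121. Genotype and clone cannot be told apart within a litter.

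Collagens are trimers of alpha chains that wind into a triple helix, and each chain is the product of its own gene. Types I, III and V build the fibrils that fibroblasts deposit, type IV forms the network of basement membranes, and type VI forms beaded microfilaments around cells. Lats2 encodes a kinase of the Hippo pathway, which restrains the coactivators YAP and TAZ. These act through TEAD factors on genes that include several of the extracellular matrix.

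Genes of 1 collagen type can share regulatory sequence, so the promoters of the chains on which the results turn are shown first. The windows run from 250 bases before to 50 bases after the annotated start and are credited to RefSeq (GRCm38.p6), whereas the probe positions given later are in mm8. A window was found for 23 of the 27 genes that passed the filter on signal. Capitals mark GGAATG (the core that TEAD factors bind), the CCAAT box, a GC box (GGGCGG) or a TATA box (TATAAA) on either strand, and no base of the windows shown belongs to more than 1 of these motifs. Col4a1 and Col4a2, whose chains form the common type IV trimer, lie head to head and their windows share 78 bases. Col4a5 and Col4a6 also lie head to head, with 842 bases between their windows. Col6a1 and Col6a3 encode chains of type VI, and Col18a1 has 2 annotated windows.
Col4a1, chr8:11312777-11313076, - strand: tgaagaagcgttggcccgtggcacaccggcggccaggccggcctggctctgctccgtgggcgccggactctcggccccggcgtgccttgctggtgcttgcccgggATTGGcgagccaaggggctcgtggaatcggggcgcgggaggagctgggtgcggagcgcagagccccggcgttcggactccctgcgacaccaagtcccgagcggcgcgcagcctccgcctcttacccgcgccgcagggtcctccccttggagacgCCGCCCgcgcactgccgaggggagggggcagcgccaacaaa
Col4a2, chr8:11312555-11312854, + strand: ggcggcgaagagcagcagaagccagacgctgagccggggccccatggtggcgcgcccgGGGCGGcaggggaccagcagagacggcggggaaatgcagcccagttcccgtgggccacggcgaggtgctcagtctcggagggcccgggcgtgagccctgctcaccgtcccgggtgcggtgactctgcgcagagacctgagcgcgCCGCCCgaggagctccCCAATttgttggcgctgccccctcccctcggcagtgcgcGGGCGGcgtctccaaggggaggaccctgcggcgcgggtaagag
Col4a5, chrX:141475169-141475468, + strand: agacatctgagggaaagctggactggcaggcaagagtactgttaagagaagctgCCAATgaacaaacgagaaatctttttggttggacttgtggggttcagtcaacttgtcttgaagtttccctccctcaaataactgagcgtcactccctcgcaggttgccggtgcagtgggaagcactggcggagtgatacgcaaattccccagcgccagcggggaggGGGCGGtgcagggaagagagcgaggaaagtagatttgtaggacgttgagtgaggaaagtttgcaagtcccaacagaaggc
Col4a6, chrX:141474027-141474326, - strand: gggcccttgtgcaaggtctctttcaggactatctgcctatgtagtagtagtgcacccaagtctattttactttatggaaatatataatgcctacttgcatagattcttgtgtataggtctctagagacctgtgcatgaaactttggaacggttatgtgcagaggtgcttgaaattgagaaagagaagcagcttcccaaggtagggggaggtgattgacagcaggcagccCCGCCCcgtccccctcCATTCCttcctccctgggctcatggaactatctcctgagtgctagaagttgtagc
Col6a1, chr10:76725995-76726294, - strand: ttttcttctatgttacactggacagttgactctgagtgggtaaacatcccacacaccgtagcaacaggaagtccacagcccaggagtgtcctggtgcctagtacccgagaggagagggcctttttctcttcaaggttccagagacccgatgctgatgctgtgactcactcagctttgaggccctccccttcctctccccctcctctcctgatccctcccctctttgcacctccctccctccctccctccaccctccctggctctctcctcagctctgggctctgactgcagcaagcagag
Col6a3, chr1:90843922-90844221, - strand: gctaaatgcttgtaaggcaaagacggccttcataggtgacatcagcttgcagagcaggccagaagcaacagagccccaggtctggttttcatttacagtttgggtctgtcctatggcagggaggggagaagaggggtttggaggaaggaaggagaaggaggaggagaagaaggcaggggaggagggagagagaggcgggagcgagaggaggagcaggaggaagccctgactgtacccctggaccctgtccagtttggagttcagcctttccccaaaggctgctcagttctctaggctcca
Col18a1, chr10:77113656-77113955, - strand: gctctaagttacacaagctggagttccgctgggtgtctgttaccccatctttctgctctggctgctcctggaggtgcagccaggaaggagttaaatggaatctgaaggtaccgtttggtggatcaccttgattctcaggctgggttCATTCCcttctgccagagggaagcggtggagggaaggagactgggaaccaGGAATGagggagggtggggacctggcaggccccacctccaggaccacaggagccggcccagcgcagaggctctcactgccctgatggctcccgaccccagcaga
Col18a1, chr10:77166481-77166780, - strand: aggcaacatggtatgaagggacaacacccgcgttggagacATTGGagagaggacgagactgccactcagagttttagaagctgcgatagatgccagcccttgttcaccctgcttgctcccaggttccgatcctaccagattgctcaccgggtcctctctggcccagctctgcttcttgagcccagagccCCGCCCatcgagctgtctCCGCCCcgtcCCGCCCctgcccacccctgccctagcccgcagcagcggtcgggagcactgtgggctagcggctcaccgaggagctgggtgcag

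Both windows of the Col4a1 and Col4a2 pair held a CCAAT box and at least 1 GC box and no GGAATG. Col4a6 held 1 GGAATG and Col4a5 none, and the downstream window of Col18a1 held 2 where its upstream window held none. None of the 4 motifs stood in the windows of Col6a1 and Col6a3. Over all 32851 windows of the table, GGAATG stood in 14.7%, CCAAT in 37.4%, GGGCGG in 35.7% and TATAAA in 13.6%. Of the 38 windows of collagen genes, 5 held GGAATG, 13 CCAAT, 23 GGGCGG and 5 TATAAA. These are matches of letters and not measured binding sites.

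The 8 arrays had median intensities of 60.9 to 68.2 in green and 83.1 to 94.2 in red. In a channel, 52.9% to 61.3% of the probes for genes stood well above background, and 22642 of 41174 probes were kept. Lats2 itself has 4 probes, of which the upstream one (A_52_P425064) was lower in Lats2-/- cells in every litter, with log2 ratios of -1.33, -1.05 and -0.56 (mean -0.98, and -1.86 with Feature Extraction's signals). The other 3 probes were lower in litters 112 and 116 and higher in litter 121, by 0.80 to 1.17 on the log2 scale, so that in litter 121 the library labelled Lats2-/- was lower at 1 of 4 probes. Which of the probes lie in the deleted part of the gene is not given in the sources used here, and a probe outside it checks nothing. In all that follows a ratio is the log2 ratio of Lats2-/- over Lats2+/+ within a litter, in the order 112, 116 and 121.

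Of the 40 collagen genes, 27 had a probe kept, with 46 probes in all. For each gene the kept probe with the highest mean signal was read. The 3 litters did not share a direction. Collagen genes were mostly higher in the Lats2-/- cells of litter 116 (23 of 27, median ratio 1.26) and mostly lower in those of litter 112 (17 of 27, median -0.30) and of litter 121 (18 of 27, median -0.15). Over all 14791 genes with a kept probe, the medians of the litters were 0.02, 0.01 and 0.01. In 17 genes litter 116 was higher while litter 121 was lower, and in 12 of them litter 112 was lower too. The median over the genes of the mean of 3 litters was 0.14, and it was 0.48, -0.37 and 0.34 without litter 112, 116 and 121, so that its sign rests on litter 116.

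No collagen gene passed the adjusted threshold of 0.05 in limma's moderated test, where the smallest adjusted p over the 27 genes was 0.711, and neither did any other probe (0 of 22642, 0%). When the 8 arrays were taken as observations with litter as a random block, which counts arrays of the same extracts singly, Col4a6 and Col18a1 passed (limma, adjusted p 0.0157 and 0.00546). At an unadjusted p under 0.05, 1 collagen gene was higher (Col4a6; 3.55% of all kept probes) and 1 was lower (Col18a1; 3.29%) in limma. The 2 genes became 4 without litter 116 (5.53% of all kept probes), where Col1a1 and Col16a1 were added on the lower side, both with an adjusted p of 0.834 in limma. Without litter 112 they were Col18a1 and Col8a1. A single sign in all 3 litters was found for 5 collagen genes, 4 higher (15% of all kept probes) and 1 lower (14.8%). These were Col4a6, Col8a2, Col11a2 and Col9a2 on the higher side and Col18a1 on the lower side. With 1 litter left out, 7, 18 and 12 of 27 genes had a single sign in both remaining litters (without 112, 116 and 121), against 52.3%, 53% and 54.2% of all kept probes. The 3 Lats2-/- extracts lay above all 3 Lats2+/+ extracts for Col4a6 alone (1 of 27 genes, against 3.1% of kept probes), and below them for 0 genes (against 3.04%).

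Differences within a litter were large. At least 2-fold differences in either direction were seen for 7 of 27 collagen genes in litter 112 (3.77% of all kept probes), for 16 in litter 116 (7.71%) and for 12 in litter 121 (6.09%). In litter 116, 15 of the 16 were higher, and in litter 121, 9 of the 12 were lower. In all, 21 of 27 genes differed at least 2-fold in some litter (13.3% of all kept probes), and 11 of them did so in opposite directions in 2 litters (1.83%). Counted with 1 probe per gene, as for the collagens, the shares over all 14791 genes were 4.61%, 9.23% and 7.28% in litters 112, 116 and 121. In any litter the share was 15.8%. In all 3 litters alike, a difference of 2-fold or more was seen for Col4a6 only (0.243% of all kept probes). The SD over litters had a median of 1.49 for the collagen genes and of 0.275 for all genes with a kept probe. Arrays of 1 litter differed far less, since the widest range between arrays of a litter had a median of 0.20 over the collagen genes, against a median range of 2.93 between litters. The range between litters was the wider one in 26 of 27 genes, Col9a2 being the exception.

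**Figure D1:**
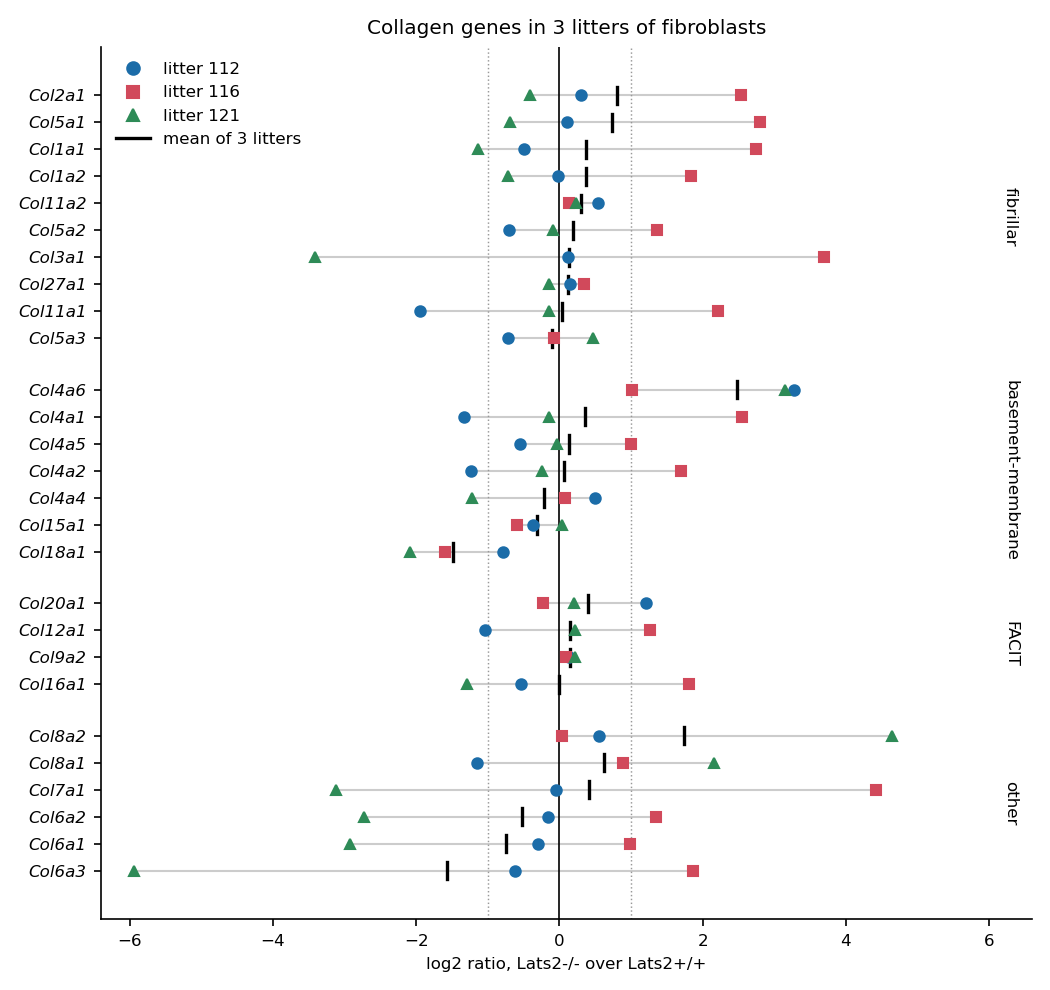
Log2 ratio of Lats2-/- over Lats2+/+ (x axis) for each of 27 collagen genes (y axis, by class), with 1 point per litter and a black bar for the mean of 3 litters; dotted lines mark 2-fold. Litter 116 lies to the right of 0 for 23 genes and litter 121 to the left for 18, while Col4a6 is to the right and Col18a1 to the left in all 3 litters.

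Among the fibrillar genes, 10 of 11 were kept and their median ratios were 0.04, 2.03 and -0.28. Litter 116 was higher for 9 of the 10 and at least 2-fold higher for 7, and litter 121 was lower for 8. Col1a1 and Col1a2 encode the chains of type I collagen, the main fibril of connective tissue. Log2 signals of Col1a1 (chromosome 11, 94767851 to 94767910) were 15.60, 13.98 and 16.65 in the Lats2+/+ extracts and 15.09, 16.73 and 15.51 in the Lats2-/- extracts. The genotypes overlapped, and the lowest extract was the wild-type one of litter 116. The ratios were -0.50, 2.75 and -1.14, and their mean was 0.37 ± 2.08 (SD over 3 litters; limma, adjusted p 0.945), which turned to -0.82 without litter 116. Col1a2 (chromosome 6, 4490619 to 4490678) took the same signs, with -0.02, 1.84 and -0.72 and a mean of 0.37 ± 1.32. Its mean was -0.37 without litter 116. A second kept probe had -0.41, 0.53 and -0.43, a mean of -0.10, and the mean over both probes was 0.13.

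Col3a1, the chain of type III collagen, had the widest spread of litter ratios among the fibrillar genes. Its Lats2+/+ signals were 12.30, 10.34 and 14.62, and its Lats2-/- signals were 12.43, 14.03 and 11.20. The lowest and the highest extract were therefore both wild type, from litters 116 and 121. The ratios of 0.13, 3.70 and -3.42 gave a mean of 0.13 ± 3.56 (limma, adjusted p 0.989). Without litter 116 the mean was -1.65. A second kept probe, 27133 bp away, had smaller ratios of the same signs (0.02, 1.62 and -1.72).

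Type V collagen, which nucleates fibrils, had ratios of 0.10, 2.81 and -0.70 for Col5a1 (mean 0.74 ± 1.84) and of -0.70, 1.36 and -0.09 for Col5a2 (mean 0.19 ± 1.06). Without litter 116 these means were -0.30 and -0.39. Col5a3 had -0.72 and 0.47 in litters 112 and 121, and in litter 116 neither of its extracts was well above background. Col5a2 and Col3a1 are neighbours on chromosome 1 and differed by 3.33 in litter 121. Among the cartilage-type chains, Col11a1 had -1.95, 2.21 and -0.15, with a mean of 0.04 that was -1.05 without litter 116. At its brighter probe Col11a2 was higher in all litters by 0.54, 0.14 and 0.23, but in litter 112 its wild-type extract was not well above background and the difference there is only bounded, at least 1.45-fold. Its other kept probe had -0.04, -0.0050 and 0.01. Col27a1 had 0.14, 0.34 and -0.14, with bounds of at least 1.11-fold and 1.26-fold higher in litters 112 and 116. Its probe was kept through its Lats2-/- extracts, since its wild-type extracts in these 2 litters were not well above background.

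Col2a1, the chain of cartilage type II collagen, had 2 kept probes that disagreed. Its brighter probe (chromosome 15, 97804088 to 97804147) gave 0.29, 2.53 and -0.40, whereas a probe on the same strand that overlaps it by 40 bases (97804108 to 97804167) gave 0.64, -0.01 and 2.84. They shared a sign in 1 of 3 litters and differed by up to 3.24. The counts and medians above use the brighter probe, as for every gene.

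**Figure D2:**
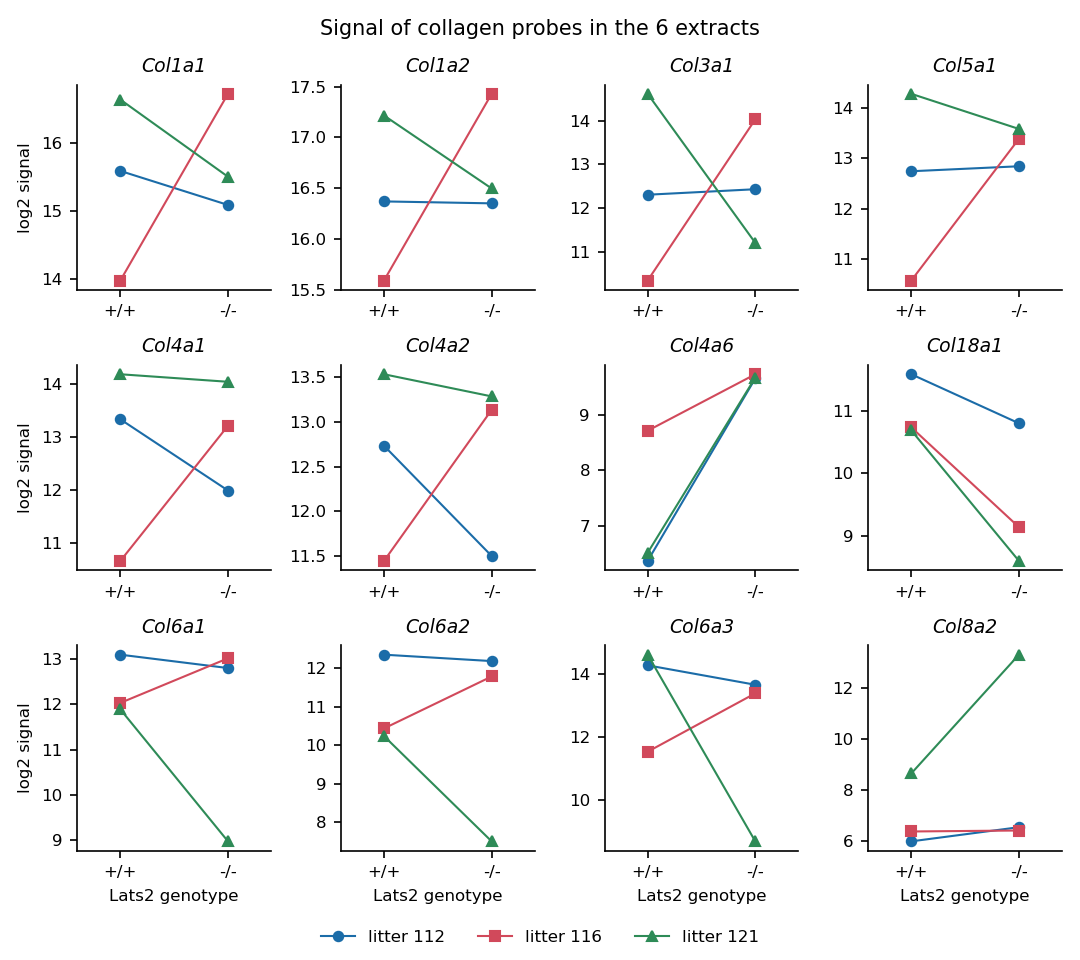
Log2 signal (y axis, own scale in each panel) of 12 collagen probes in the Lats2+/+ and the Lats2-/- extract (x axis) of each litter, with a line joining the 2 extracts of a litter. Lines of the litters cross for Col1a1, Col3a1 and Col4a1, whereas they run the same way in all 3 litters for Col4a6 (upward) and Col18a1 (downward).

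Of the basement-membrane genes, 7 of 8 were kept, with median ratios of -0.55, 0.99 and -0.14. Col4a1 and Col4a2, whose shared promoter is printed above, stood close to each other in every litter. Col4a1 (chromosome 8, 11198981 to 11199040) had signals of 13.33, 10.67 and 14.18 in Lats2+/+ and of 11.99, 13.21 and 14.04 in Lats2-/- extracts. Its ratios were -1.34, 2.54 and -0.14 (mean 0.35 ± 1.99). Col4a2 (chromosome 8, 11448812 to 11448871) had -1.24, 1.70 and -0.25 (mean 0.07 ± 1.49). The 2 genes took the same sign in all 3 litters and differed by at most 0.85, in litter 116. Without litter 116 the means were -0.74 for each. Both genes had a second kept probe with the same signs in every litter.

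At its brightest probe Col4a6 had the highest mean ratio of the 27 kept collagen genes. Its chain pairs with that of Col4a5 in the basement membranes of some epithelia and of smooth muscle. At its brightest probe (A_52_P516409, chromosome X, 136411815 to 136411874), the Lats2+/+ extracts had signals of 6.37, 8.71 and 6.52 and the Lats2-/- extracts had 9.65, 9.73 and 9.67. The Lats2-/- extracts were nearly alike and all lay above the wild-type ones. The ratios were 3.28, 1.02 and 3.15, and their mean of 2.48 ± 1.27 (SD over 3 litters) is 5.59-fold, higher on 8 of 8 arrays. In limma the unadjusted p was 0.0111 and the adjusted p 0.711. Without litter 112 the mean was 2.08 and the unadjusted p 0.0538 in limma. Its other kept probes did not all bear this out, and the mean over the 3 probes was 1.01, below the 1.75 of Col8a2. With Feature Extraction's own signals, which carry no offset, the brightest probe had a mean of 3.70. One of them, 767 bp away, was higher in each litter by a smaller amount (0.72, 0.25 and 0.56). It was kept through its Lats2-/- extracts, its wild-type extracts in litters 112 and 121 were not well above background, and the differences there are bounds of at least 1.59-fold and 1.47-fold. The other, 1383 bp away, had 0.07, -0.05 and 0.06 and was well above background on every array. Col4a5, the head-to-head neighbour, had -0.55, 0.99 and -0.03 (mean 0.14 ± 0.79, and -0.29 without litter 116), which was 3.83 and 3.18 below Col4a6 in litters 112 and 121 and 0.02 below it in litter 116.

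Col18a1, the multiplexin whose end fragment is endostatin, was the only one of the 27 kept collagen genes with a lower ratio in every litter. Its signals at A_51_P191700 (chromosome 10, 76496791 to 76496850) were 11.59, 10.74 and 10.69 in Lats2+/+ and 10.80, 9.14 and 8.60 in Lats2-/- extracts. The highest Lats2-/- extract, that of litter 112, lay above the wild-type extracts of the other litters, so the genotypes overlapped across litters but not within any. The ratios were -0.79, -1.60 and -2.09 (mean -1.49 ± 0.66), or 2.81-fold lower, on 8 of 8 arrays (limma, unadjusted p 0.00769, adjusted p 0.711). A second probe, 186 bp away, gave -0.71, -1.21 and -1.62 (mean -1.18 ± 0.46; limma, unadjusted p 0.00582, adjusted p 0.711). The related multiplexin Col15a1 was dim. Its kept probe passed the filter through its wild-type extracts of litters 112 and 116. No Lats2-/- extract was well above background, and neither was the wild-type extract of litter 121 (ratio 0.04). In litters 112 and 116 it was lower by at least 1.29-fold and at least 1.45-fold. Col4a4, a chain of the kidney glomerular network, had 0.49, 0.07 and -1.22 (mean -0.22, and 0.28 without litter 121).

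FACIT collagens sit on the surface of fibrils, and 4 of 9 were kept. Col12a1, bound to type I fibrils, had -1.04, 1.26 and 0.22 (mean 0.15 ± 1.15), which became -0.41 without litter 116. Col16a1 had -0.54, 1.81 and -1.30. Its mean of -0.01 ± 1.62 was 0.26 without litter 112 and 0.63 without litter 121. Col20a1 had 1.21, -0.23 and 0.20, and its ratio in litter 116 is a bound, at least 1.18-fold lower, since its Lats2-/- extract was not well above background there. Its mean of 0.39 was -0.02 without litter 112. Col9a2, of cartilage type IX, was higher by 0.13, 0.08 and 0.22, a spread no wider than that between its arrays.

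The remaining 6 kept genes differed at least 2-fold in litter 121 without exception, 4 lower and 2 higher. The type VI chains were all lower there. Col6a1 (chromosome 10, 76152870 to 76152929) had signals of 13.10, 12.03 and 11.89 in Lats2+/+ and of 12.80, 13.02 and 8.97 in Lats2-/- extracts. The Lats2-/- extract of litter 121 was the lowest of the 6 for each of the 3 chains. The ratios of Col6a1 were -0.30, 0.99 and -2.92 (mean -0.74 ± 1.99). Those of Col6a2, its neighbour on chromosome 10, were -0.17, 1.35 and -2.74 at the brighter probe (mean -0.52 ± 2.07). At that probe they were never more than 0.36 from Col6a1. A second kept probe of Col6a2 had -1.68, 1.86 and -1.55, with the same signs but farther from Col6a1 in every litter. Col6a3, on chromosome 1, had -0.62, 1.86 and -5.94 (mean -1.57 ± 3.99), the largest difference within a litter among the collagens. Without litter 121 the 3 means turned to 0.35, 0.59 and 0.62. The adjusted p-values of the 3 genes in limma were 0.863, 0.919 and 0.856. The other kept probes of Col6a3 had -2.69 and -0.69 in litter 121, where neither was well above background in the Lats2-/- extract, for bounds of at least 6.29-fold and 1.62-fold lower.

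Type VIII collagen, a short-chain network former of endothelium and eye, went the other way in litter 121. Col8a1 had signals of 14.59, 13.95 and 15.28 in Lats2+/+ and of 13.43, 14.83 and 17.44 in Lats2-/- extracts. Its ratios were -1.16, 0.89 and 2.16 (mean 0.63 ± 1.67, and -0.13 without litter 121). Col8a2 had Lats2+/+ signals of 6.00, 6.38 and 8.66 and Lats2-/- signals of 6.55, 6.42 and 13.30, so that it was bright in litter 121 alone. Its ratios were 0.55, 0.04 and 4.65, and their mean was 1.75 ± 2.53 (limma, unadjusted p 0.177, adjusted p 0.761). The mean was 0.30 without litter 121, and 2.76 with Feature Extraction's signals (limma, unadjusted p 0.0446, adjusted p 0.736). In litter 112 its wild-type extract was not well above background, for a bound of at least 1.37-fold higher. Col7a1, which makes the anchoring fibrils of skin, had -0.05, 4.41 and -3.12 (mean 0.42 ± 3.79, and -1.58 without litter 116), with its lowest and highest signals in the wild-type extracts of litters 116 (8.57) and 121 (13.39).

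The signals of single extracts show where these ratios arose. Relative to each gene's mean over the 6 extracts, the median collagen gene stood at -0.16 in the Lats2+/+ extract of litter 112, at -0.99 in that of litter 116 and at 0.64 in that of litter 121. The Lats2-/- extracts stood at -0.23, 0.31 and 0.45. Of 27 genes, 11 had their lowest signal in the wild-type extract of litter 116, and 11 had their highest in the wild-type extract of litter 121. The medians of all kept probes lay between -0.04 and 0.03 in the 6 extracts. For fibrillar genes the 2 wild-type extracts were at -1.57 and 1.52. Litter 121 was on a slide of its own, so that a difference between it and the other litters cannot be told apart from a difference between slides, whereas litters 112 and 116 shared a slide. In bulk RNA, fewer cells of a type and less RNA per cell cannot be told apart either.

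**Figure D3:**
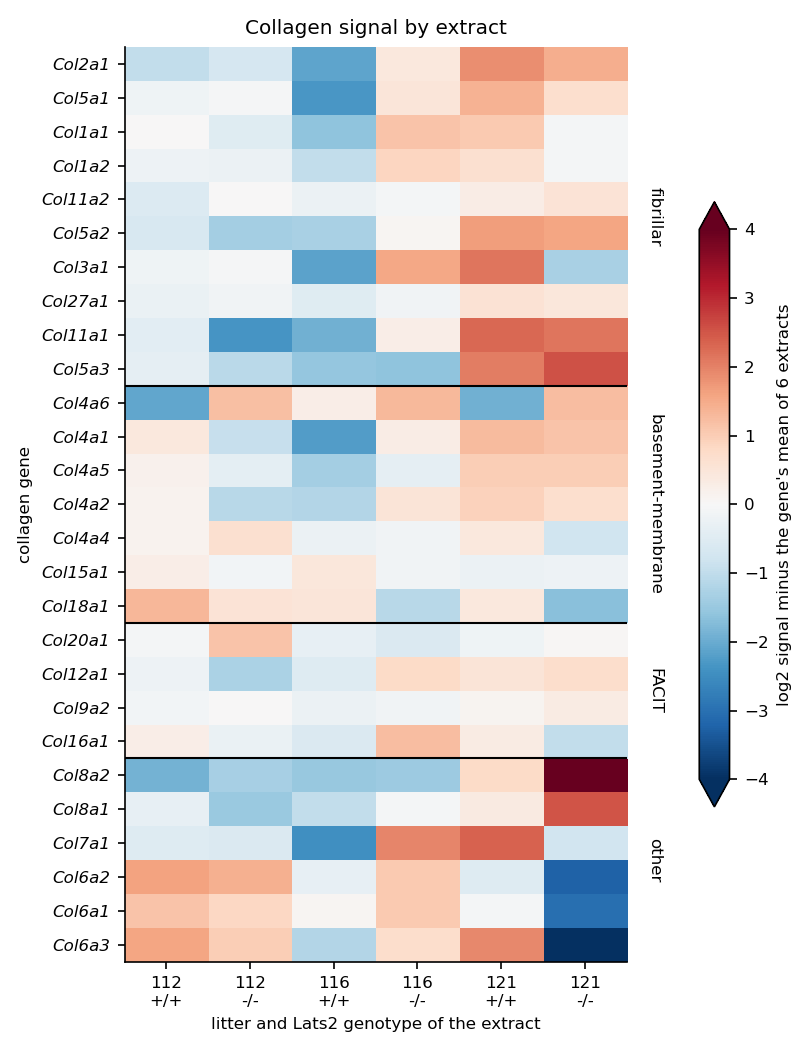
Log2 signal of 27 collagen genes (rows, by class) in the 6 extracts (columns, by litter and Lats2 genotype), as the difference from the gene's mean over the extracts; colours are capped at 4 in both directions. The wild-type extract of litter 116 is low for most fibrillar genes (median -1.57), and the Lats2-/- extract of litter 121 is low for the 3 type VI chains and high for Col8a1 and Col8a2.

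Across the 27 genes, Pearson's r between litter ratios was -0.15 for litters 112 and 116, 0.29 for 112 and 121 and -0.37 for 116 and 121, given as a description, since the genes share arrays and extracts. Over all 14791 genes it was 0.13, 0.06 and -0.003. Probes of 1 gene agreed better. Of 16 genes with several kept probes, 12 had the same sign at every probe in all 3 litters. The other 4 were Col2a1 and Col11a2 (1 of 3 litters) and Col4a6 and Col5a1 (2 of 3). Of the 12, Col3a1, Col6a2 and Col6a3 had a gap of more than 1.5 between probes in some litter.

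The 13 genes that were not kept had 27 probes, and they were Col4a3, Col9a1, Col9a3, Col10a1, Col13a1, Col14a1, Col17a1, Col19a1, Col22a1, Col23a1, Col24a1, Col25a1 and Col28a1. Most of their probes were near background, but litter 121 held exceptions. Col14a1, a FACIT collagen, was well above background on all 4 arrays in the Lats2-/- extract of litter 121 and on no array of the wild type at 1 of its 2 probes (signals of 9.20 and 6.02, at least 7.95-fold higher). The fibrillar Col24a1 was likewise higher there by at least 3.69-fold (at a probe that was above background on 1 array of litter 116 too). Col9a3 was at least 1.08-fold higher in litter 112. Col10a1, a marker of hypertrophic cartilage that was looked at after its values were seen, was measured in both extracts of litter 121. Its ratio was -2.30 there (6.51 against 8.82), while neither extract of the other litters was well above background. Col19a1, looked at in the same way, had 0.99 in litter 121 at its brightest probe. These values come from 1 litter and have no replicate.

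Genes that act on collagen were read in the same way. The biosynthesis list holds prolyl and lysyl hydroxylases, chaperones, propeptide proteases and crosslinking enzymes, and 28 of its 32 genes on the array were kept. Their median ratios were 0.12, 0.40 and -0.24. Litter 116 was higher for 21 of the 28, and litter 121 was lower for 18. In limma 1 of the 28 was higher at an unadjusted p under 0.05 (3.55% of all kept probes), 0 were lower and 0 passed the adjusted threshold. This was Loxl1, a lysyl oxidase of elastic and collagen fibres, with 0.25, 0.45 and 0.25 (limma, unadjusted p 0.0426, adjusted p 0.711). Its unadjusted p was 0.0666 with a smaller offset, 0.115 with Feature Extraction's signals, 0.077 with median centring and 0.11 to 0.142 with a litter left out. Serpinh1, the collagen chaperone HSP47, had -0.51, 1.18 and 0.13. The SD over litters had a median of 0.64 for this list, below that of the collagen genes.

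The list of collagen receptors and partners had 21 of 24 genes kept, with median ratios of 0.20, 1.44 and -0.68. Litter 116 was higher for 19 of the 21, and the median SD was 1.44. In limma 3 of the 21 genes had an unadjusted p under 0.05, all higher (3.55% of all kept probes), and 0 passed the adjusted threshold. With the 8 arrays as observations and litter as a random block, Ddr1 and Nid2 passed it (limma, adjusted p 0.041 and 0.017). Ddr1, a receptor tyrosine kinase that binds collagen, was higher by 0.72, 0.87 and 0.87 (limma, unadjusted p 0.0015, adjusted p 0.634). Nid2, a nidogen that links laminin and type IV collagen, was higher by 2-fold or more in every litter (1.09, 1.78 and 3.68; limma, unadjusted p 0.0199, adjusted p 0.711). Postn, a matricellular partner of type I collagen, had 0.80, 2.55 and 0.67 (limma, unadjusted p 0.0425, adjusted p 0.711). The unadjusted p of Nid2 was 0.0591 without litter 116 and that of Postn 0.0732 without litter 112 in limma. The mean of Nid2 was 1.44 without litter 121 in place of 2.18, and that of Postn 0.74 without litter 116 in place of 1.34.

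**Figure D4:**
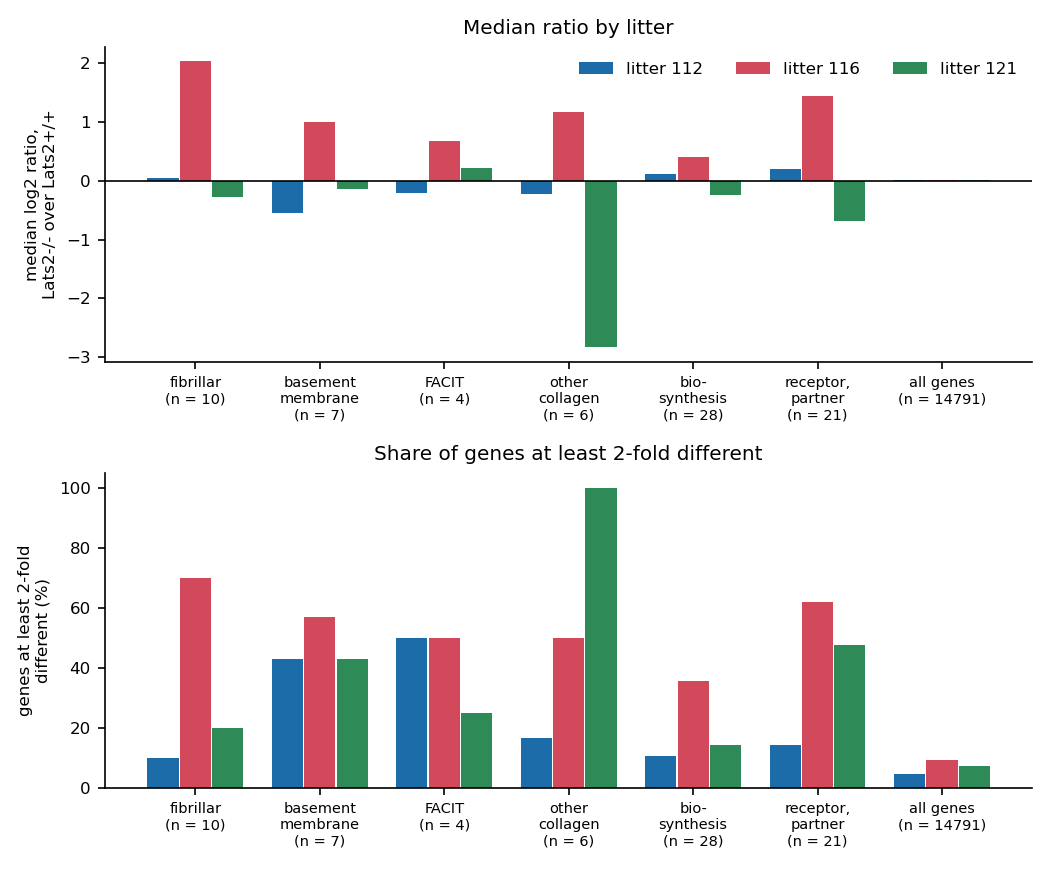
Median log2 ratio of Lats2-/- over Lats2+/+ (upper panel) and percentage of genes at least 2-fold different in either direction (lower panel) in each litter, for the 4 collagen classes, the lists of biosynthesis genes and of receptors and partners, and all genes with a kept probe. Litter 116 has the highest median in every collagen class (0.67 to 2.03), all genes together have medians near 0, and all 6 genes of the other collagens are past 2-fold in litter 121.

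Markers of cell types varied between the same extracts. Of 10 fibroblast markers 9 were kept, with median ratios of 0.36, 2.05 and -0.77, and Tcf21 was not well above background on any array. The log2 of their summed signal was 17.8 to 18.4 in Lats2+/+ and 16.8 to 18.3 in Lats2-/- extracts, the lowest being that of litter 121. S100a4, a large part of the sum, was at 14.1 there and at 17.7 in its wild-type partner. Pdgfra, Thy1, Dcn and Lum were lower in litter 121 too, with ratios of -4.96, -3.66, -1.94 and -0.77. The remaining kept markers, Fn1, Vim, Pdgfrb and Fbn1, had ratios of 0.07, -0.07, -0.14 and -0.18 in litter 121. All 4 smooth muscle markers were kept, and their summed signal was lowest in the wild-type extract of litter 116 (14.0, against 16.8 to 18.0 in the other 5). Of 4 epithelial markers none was kept, nor were 3 of the 5 endothelial markers (Cdh5, Emcn and Pecam1) above background on any array. Among 7 chondrocyte markers 3 were kept, and Cnmd, Hapln1 and Matn1 were above background on no array. For the 5 neural markers the summed signal was highest in the Lats2-/- extract of litter 121 (12.8, against 10.4 in its wild-type partner). Acta1 was the only skeletal muscle marker kept, and Des and Myog were above background on no array. The signal of Acta1 was 8.56 in the wild-type extract of litter 116 and 11.8 to 13.3 in the other 5 extracts. The cartilage factor Sox9 was lowest in the Lats2-/- extract of litter 121 (6.87, against 10.6 in its wild-type partner), whereas the other kept chondrocyte markers, Acan and Comp, had ratios of 0.01 and 0.11 in litter 121. The osteoblast list had 1 of 3 genes kept, the list for macrophages and blood 2 of 4 and the adipocyte list 2 of 3, and the largest spread among their summed signals was that of the adipocyte list, from 8.17 to 10.8. The part of cell composition in the collagen ratios was not tested.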

How the data were processed

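RNA of Lats2-/- and Lats2+/+ MEFs from 3 litters was compared on 8 two-colour Agilent arrays (design 14868), 1 array or more per dye orientation and litter. Per the file headers, the scans were extracted with Agilent Feature Extraction 10.7.3.1. The deposited scanner files hold the mean intensity of each spot and the median intensity of its local background on a linear scale, without normalization, together with processed intensity values that Feature Extraction had corrected for background and dye. Each deposited scanner file gives the log10 of processed red over processed green. The deposited value table gives the same log10 ratios turned to Lats2-/- over Lats2+/+, within 0.005 of the scanner's. Flags for outliers, saturation and signal well above background, in the deposited files, are other values without unit.

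Mean intensities were corrected with normexp (offset 50) and normalized by loess within arrays in limma 3.58.1 under R 4.3.3, without control spots and 860 outlier spots. After 860 outlier spots were left out, repeat spots of a probe, then arrays of a litter, were averaged. Since both extracts of a litter share its arrays, the labels' litter pairs them. A probe was kept if at least 2 of 3 extracts of either genotype were well above background on most of their arrays. Signals per extract were taken after Aquantile between arrays, on the log2 scale. The 3 litter ratios were tested against 0 with limma's moderated test, two-sided, and Benjamini-Hochberg adjustment over the 22642 kept probes. The p-values measure the spread between these litters only, and their number limits the precision. The limma fit was tested on simulated data.

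Where a probe was above background in only 1 of the extracts of a litter, its fold is a bound. For it, the brighter mean was divided by the dim probe's own signal or, if higher on that array, by the dimmest signal called well above background. Named one by one were Lats2, the main chains of types I, III, IV, V, VI, XII, XIV, XV and XVIII, collagen genes with an unadjusted p under 0.05, with a 2-fold difference in any litter or with a bound, and genes of the other lists with an unadjusted p under 0.05 or 2-fold differences that ran alike in every litter. Other genes are named to complete a list. The members, lists and tests were chosen with earlier results of these data known. Alternatives were another offset, the processed signals, the value table, median centring, other filters, each litter left out, unpaired and block fits, the methods' t-test, probe averages and gene names from the reference table.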

Additional observations from a re-analysis of the deposited data

How the results depend on the processing

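No count of adjusted calls above 0 was found under another offset, Feature Extraction's signals, the value table, median centring, other filters, left-out litters, the methods' test or averaged probes. It changed only in fits to the 8 single arrays, which take arrays of the same extracts as observations: 341 probes with litter as a random block (2 collagen genes, Col4a6 and Col18a1), 203 with a dye term added (1, Col18a1) and 717 with slide as the block (2). Collagen genes at an unadjusted p under 0.05 numbered 4, 3 and 4 there in place of 2, while the share over all probes was 13.2%, 12.6% and 17.8% in place of 6.84%. They numbered 3 with Feature Extraction's signals and with the value table (Col8a2 added) and with averaged probes (Col2a1 added), where 6.66%, 6.64% and 6.86% of all probes were called. The unpaired fit (no replicate block) gave a median of 0.14 and 2 such genes (2.45% of all probes), and the methods' test 0 such genes (5.95%). The collagen median of 0.14 was 0.049 with slide as the block and 0.091 with no filter. Without Col2a1 and Col4a6, 2 of the 4 genes whose probes differ in sign (chosen after seeing the data), 1 was left. The count with 1 sign in all litters went from 5 to 3 of 22 genes under the strict filter and to 12 of 40 with no filter. It uses no model, so it was not recomputed for the unpaired and array-level fits and the methods' test. With 1 litter left out, unadjusted calls numbered 2 to 4, single-sign genes 7 to 18 and the median ran from -0.37 to 0.48. Dim probes had larger ratios with Feature Extraction's signals, with means of 0.87 for Col11a2, -1.77 for Col15a1 and 1.096 for Col27a1 in place of 0.30, -0.31 and 0.11.

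The sign of some means turned. Col11a1 was -0.0087 with Feature Extraction's signals, -0.0084 with the value table, -0.026 after median centring and -0.044 over all probes, where Col16a1 was 0.014. With slide as the block the turned means were Col1a1 -0.0060, Col3a1 -0.75, Col4a2 -0.0096, Col5a3 0.039, Col7a1 -0.47 and Col11a1 -0.010. Leaving out each litter in turn moved the mean past 0 for 20 genes, over these ranges: Col11a1 -1.05 to 1.03, Col12a1 -0.41 to 0.74, Col16a1 -0.92 to 0.63, Col1a1 -0.82 to 1.12, Col1a2 -0.37 to 0.91, Col20a1 -0.015 to 0.71, Col2a1 -0.055 to 1.41, Col3a1 -1.65 to 1.91, Col4a1 -0.74 to 1.20, Col4a2 -0.74 to 0.72, Col4a4 -0.57 to 0.28, Col4a5 -0.29 to 0.48, Col5a1 -0.30 to 1.45, Col5a2 -0.39 to 0.63, Col5a3 -0.40 to 0.20, Col6a1 -1.61 to 0.35, Col6a2 -1.45 to 0.59, Col6a3 -3.28 to 0.62, Col7a1 -1.58 to 2.18 and Col8a1 -0.13 to 1.52. Col4a6 and Col18a1 kept their direction in all of these. The causes were not tested. The 3 litters limit the precision, as does signal near background, where ratios shrink toward 0.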

Other observations

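Probes of 3 further collagen genes carry older names in the files and were named through RefSeq transcripts. Col6a4, a type VI chain, had 2 kept probes, with log2 ratios of 0.36, 0.33 and 0.05 at one and of -0.05, 0.07 and 0.01 at the other in litters 112, 116 and 121. It did not share the low ratio of Col6a1, Col6a2 and Col6a3 in litter 121, a difference that was not tested. Col6a6 and Col26a1 had 1 probe each, which was not kept.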
